A study of Mus musculus with 4 samples.

Results

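The 10 genes described here encode transcription factors of mesenchymal cells and of the lung mesoderm: Prrx1, Twist1, Twist2, Snai1, Snai2, Zeb1, Zeb2, Tbx4, Tbx5 and Foxf1. They were chosen by symbol, and all 10 were found among the 39056 rows of the gene count table. Polyadenylated RNA of mouse lung cells was sequenced in 4 libraries, with 1 library for each treatment label. The mice carried a reporter that marks cells expressing the receptor S1PR1 with green fluorescent protein (GFP). Per the labels the sorted cells were GFP-positive and carried CD31, an endothelial protein, but not CD45, a protein of leukocytes. The treated groups were challenged with lipopolysaccharide (LPS, a bacterial cell wall endotoxin) at 10 mg/kg into the peritoneum and carry labels of 8, 16 and 20 h, and the group they were set against had no LPS. The labels give no strain, age, sex or number of animals behind a library, and the reporter was shared by all groups.

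Mesenchymal transcription factors set the identity of connective tissue cells and, in epithelial or endothelial cells, can drive a transition to a mesenchymal state. SNAIL and ZEB proteins are zinc finger repressors that bind E-boxes in DNA and silence junction genes such as that for E-cadherin. TWIST proteins are basic helix-loop-helix factors that pair with E proteins, and Id proteins take those partners away. Tbx4, Tbx5 and Foxf1 mark the mesoderm around the growing lung buds of the mouse, and Foxf1 is also expressed in mouse lung endothelium.

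Promoter windows from RefSeq were examined for 6 of the 10 genes: Prrx1, Twist1, Twist2, Snai1, Zeb2 and Tbx4. The windows follow build GRCm38.p6 and run from 250 bases before to 50 after a start site. Those below are shown because Snai1 and Twist2 had the highest folds over no LPS at 8 and 16 h, Twist1 had its own highest level at 20 h, and Prrx1 was nearly level. They lie at chr2:167537945-167538244 (plus strand) for Snai1, chr1:91801211-91801510 (plus strand) for Twist2, chr12:33957421-33957720 (plus strand) for Twist1 and chr1:163313601-163313900 (minus strand) for Prrx1. Each is written 5′ to 3′ along the gene, and capitals mark CACCTG or its reverse complement CAGGTG, a form of the E-box that SNAIL and ZEB proteins bind.
Snai1: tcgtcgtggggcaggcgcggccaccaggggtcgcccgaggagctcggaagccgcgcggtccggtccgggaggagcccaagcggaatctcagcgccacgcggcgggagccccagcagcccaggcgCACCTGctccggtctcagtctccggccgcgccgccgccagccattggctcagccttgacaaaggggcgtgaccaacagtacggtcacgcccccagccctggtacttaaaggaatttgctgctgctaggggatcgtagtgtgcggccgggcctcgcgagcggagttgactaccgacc
Twist2: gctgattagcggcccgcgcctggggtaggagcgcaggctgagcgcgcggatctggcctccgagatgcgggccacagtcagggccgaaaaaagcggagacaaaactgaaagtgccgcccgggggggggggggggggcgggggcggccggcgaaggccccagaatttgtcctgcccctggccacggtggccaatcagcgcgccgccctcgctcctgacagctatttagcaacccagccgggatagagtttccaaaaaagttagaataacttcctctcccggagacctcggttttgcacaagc
Twist1: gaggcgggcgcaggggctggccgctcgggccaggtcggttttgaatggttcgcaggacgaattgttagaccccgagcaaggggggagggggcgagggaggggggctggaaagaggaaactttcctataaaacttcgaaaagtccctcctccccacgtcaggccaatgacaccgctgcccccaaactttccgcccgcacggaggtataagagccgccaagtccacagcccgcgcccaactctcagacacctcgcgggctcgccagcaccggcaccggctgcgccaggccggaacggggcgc
Prrx1: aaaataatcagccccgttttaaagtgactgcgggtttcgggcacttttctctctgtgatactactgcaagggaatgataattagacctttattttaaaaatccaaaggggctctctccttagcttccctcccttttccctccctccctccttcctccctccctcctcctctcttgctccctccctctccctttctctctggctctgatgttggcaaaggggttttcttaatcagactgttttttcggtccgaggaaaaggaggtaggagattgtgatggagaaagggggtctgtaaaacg

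CACCTG was found once among these windows, in that of Snai1, where it begins at position -126 from the start site. In all, 20.2% of 32851 RefSeq promoter windows of the same length hold CACCTG on either strand. The general E-box CANNTG, which includes CACCTG, occurred 1 time in the Snai1 window and 0 times in those of Twist1, Twist2 and Prrx1, against 72.3% of all windows that hold it. The Tbx4 window held 6 E-boxes, and the 4 Zeb2 windows, which belong to different start sites, held 0. CpG pairs numbered 34 in the Snai1 window, 25 in Twist2, 27 in Twist1 and 6 in Prrx1, with a median of 7 over all windows. The TATAAA motif occurred in the windows of Twist1 and Tbx4 (13.6% of all windows), and the GC box GGGCGG occurred 4 times in that of Twist2 and 1 time each in those of Twist1 and Tbx4 and in 3 of the 4 Zeb2 windows (35.7% of all windows). The Zeb2 windows at start sites 45113279 and 45113253 overlap and hold the same GC box, so it is counted in each. These matches describe the letters of the windows only. No window was found for Snai2, Tbx5 and Foxf1. Zeb1 was left out of this step, so its promoter was not examined.

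Library totals lay between 27566454 and 28905776 reads, and 11803 genes reached 1 CPM (read counts scaled to library depth, with totals adjusted by edgeR's TMM factors) in at least 1 library. These are called measured genes, and 9 of the 10 factors were among them; Tbx5 was not. Markers of the labelled cell type were near 0: none of 8 endothelial genes was measured, their summed level was 0.542 to 0.731 CPM over the libraries, and Emcn, Erg and Cldn5 had 0 reads. Pecam1, which encodes CD31, had 7 reads without LPS and 2 (8 h), 2 (16 h) and 1 (20 h) after it. S1pr1 had 27, 87, 79 and 29 reads in the same order of labels. Ptprc, which encodes CD45, stood at 1.12 to 1.49 CPM, and none of 5 epithelial or 6 smooth muscle and pericyte markers was measured. Of 7 fibroblast markers 3 were measured, Col3a1, Pdgfra and Dcn, with sums of 116 CPM at 8 h, 121 CPM at 16 h and 202 CPM at 20 h against 211 CPM without LPS, while Col1a1 had at most 4 reads. These levels go against the labelled cell type, so it is in doubt whether the columns hold the cells that the labels name. Below, a time stands for the library labelled with it, and each value carries that doubt.

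With 1 library per label no difference has a replicate check, so no p-value or SD between labels is given. Intervals are 95% counting intervals, reads have no molecular identifiers, and a change in the number of cells of a type cannot be told apart from a change in RNA per cell. A gene was called higher or lower by a rule of size: at least 2-fold, an interval that excludes 1, and a level of 1 CPM or more in the higher of the 2 libraries. By the interval alone, a gene is said to stand above or below the library it is set against, without a call.

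Per length of annotated exons, Snai2 was the highest of the 10 factors and Tbx5 the lowest. Snai2 stood at 129.7 TPM (abundance scaled to gene length and library depth) without LPS and 173 (8 h), 176 (16 h) and 134 (20 h) after it, which placed it between percentiles 86.7 and 90.9 of measured genes. Next in mean level came Twist1 at 105 TPM, Prrx1 at 78.8, Zeb2 at 30.1, Zeb1 at 23.5, Twist2 at 21.6, Snai1 at 20.8, Foxf1 at 11.7, Tbx4 at 2.73 and Tbx5 at 0.434. The ranges over the 4 libraries overlapped between Zeb2 and Zeb1, between Zeb1 and Twist2 and between Twist2 and Snai1. These ranges span different labels, so overlap does not mean that 2 genes were alike within a library. Without LPS Zeb2 stood at 32.2 TPM (31.3 to 33.2) and Zeb1 at 18.6 TPM (17.6 to 19.6). At 8 h their intervals overlapped, at 28.7 TPM (27.8 to 29.6) for Zeb2 and 29.3 TPM (28.1 to 30.6) for Zeb1. Snai2, Twist1 and Prrx1 did not overlap with one another, but this separation and the order depend on the length used. Per longest annotated transcript Snai2 averaged 114.8 TPM, Prrx1 100.3 TPM and Twist1 78.6 TPM. By that length the ranges of Snai2 (97.5 to 131.6 TPM) and Prrx1 (99.1 to 101 TPM) overlapped. The range of Zeb1 (24.8 to 38.8 TPM) then overlapped neither that of Zeb2 (46.5 to 53.0 TPM) nor that of Twist2 (12.7 to 24.4 TPM).

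**Figure D1:**
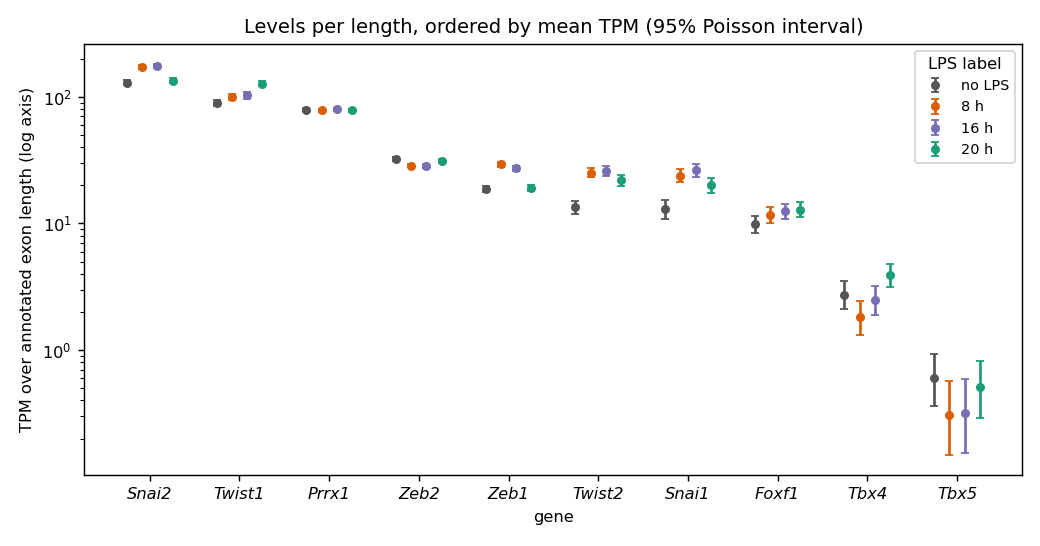
Level of each factor per annotated exon length (TPM, log axis) in the 4 libraries, ordered by mean, with points for libraries in order of time and bars for 95% Poisson counting intervals. Snai2, Twist1 and Prrx1 lie above 78 TPM in every library, and Tbx5 lies below 1 TPM.

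Prrx1, a paired-related homeobox gene of limb, face and body wall mesenchyme in the mouse, was nearly level. It stood at 210.1 CPM without LPS and 209 (8 h), 213 (16 h) and 211 (20 h) after it. The highest library exceeded the lowest by a ratio of 1.02, and 0.396% of the 9095 genes with at least 10 CPM in at least 1 library had a smaller ratio. All of its intervals included 1, and the widest bounds of its fold over no LPS were 0.960 at 8 h and 1.05 at 16 h. The gene spans positions 163245119 to 163313710 of chromosome 1 on the minus strand (GENCODE M21, the mm10 build).

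Both SNAIL genes stood above no LPS at 8 and 16 h, and Snai1 at 16 h was the 1 call of size among the factors. Snai1 (chromosome 2, 167538195 to 167542814) had 142 reads without LPS and 269 (8 h), 286 (16 h) and 218 (20 h) after it. In CPM these were 5.02, 9.37, 10.3 and 7.87, so no LPS was lowest and 20 h lay between it and the other treated libraries. The fold over no LPS was 1.87 (1.52 to 2.30) at 8 h, 2.05 (1.67 to 2.53) at 16 h and 1.57 (1.26 to 1.95) at 20 h. The 16 h value passed the 2-fold rule by a small margin, and its interval reaches below 2. Snai1 transcripts are 59.8% GC, in the top group when measured genes are split into 10 equal groups by GC (57.7% to 74.2%). Its log2 ratio at 16 h was 1.03, and 0.95 after the median of that group was subtracted, which is under 2-fold and ends the call.

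Snai2, the more abundant SNAIL gene, differed less. It stood at 62.8 CPM without LPS and 84.3 (8 h), 86.2 (16 h) and 65.7 (20 h) after it. The fold over no LPS was 1.34 (1.26 to 1.43) at 8 h, 1.37 (1.29 to 1.46) at 16 h and 1.05 (0.979 to 1.12) at 20 h, none of them called. Between successive labels, 20 h stood at 0.762 of 16 h (0.717 to 0.811).

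The TWIST genes differed in which label was highest. Twist1 stood at 34.9 CPM without LPS and 39.1 (8 h), 40.5 (16 h) and 50.4 (20 h) after it, so 20 h was highest and no LPS lowest. The fold over no LPS was 1.12 (1.03 to 1.22) at 8 h and 1.16 (1.065 to 1.27) at 16 h. The 20 h library was at 1.44-fold over no LPS (1.33 to 1.57) and at 1.24-fold over 16 h (1.15 to 1.35). Twist1 transcripts are 59.3% GC, in the same top GC group, and the median log2 ratio of that group at 20 h over no LPS was 0.11. The log2 ratio of Twist1 was 0.53, and 0.42 after that median was subtracted. The part of base composition in the values of Snai1 and Twist1 was not tested.

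Twist2, which encodes the shorter relative of Twist1 and is known in mouse dermis and bone, stood at 10.2 CPM without LPS and 19.3 (8 h), 20.0 (16 h) and 16.9 (20 h) after it. All 3 treated libraries were above no LPS. The fold was 1.89 (1.64 to 2.19) at 8 h, 1.96 (1.70 to 2.27) at 16 h and 1.66 (1.43 to 1.92) at 20 h, under the 2-fold rule each time. An antisense gene, Gm29100, shares 1477 exon bases with Twist2 and has no row in the gene count table. Without stated strand handling, any reads from Gm29100 there cannot be told apart from those of Twist2.

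By their intervals Zeb1 stood above and Zeb2 below no LPS at 8 and 16 h, with no call of size. Zeb1 (chromosome 18, 5591860 to 5775467) stood at 45.8 CPM without LPS and 72.7 (8 h), 67.6 (16 h) and 47.2 (20 h) after it. It was at 1.59-fold (1.48 to 1.70) at 8 h, 1.48-fold (1.38 to 1.59) at 16 h and 1.03-fold (0.953 to 1.11) at 20 h over no LPS. It was also the 1 measured factor whose interval excluded 1 between 16 and 8 h, at 0.930 (0.873 to 0.990).

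Zeb2 was the factor with the second highest read level, at 154 CPM without LPS and 138 (8 h), 137 (16 h) and 151 (20 h) after it. The fold over no LPS was 0.898 (0.860 to 0.937) at 8 h, 0.892 (0.854 to 0.932) at 16 h and 0.979 (0.938 to 1.02) at 20 h. The differences at 8 and 16 h are small but outside counting error, with 3806 to 4353 reads behind each value. Zeb2os, an antisense gene without a row in the gene count table, shares 653 exon bases with Zeb2.

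**Figure D2:**
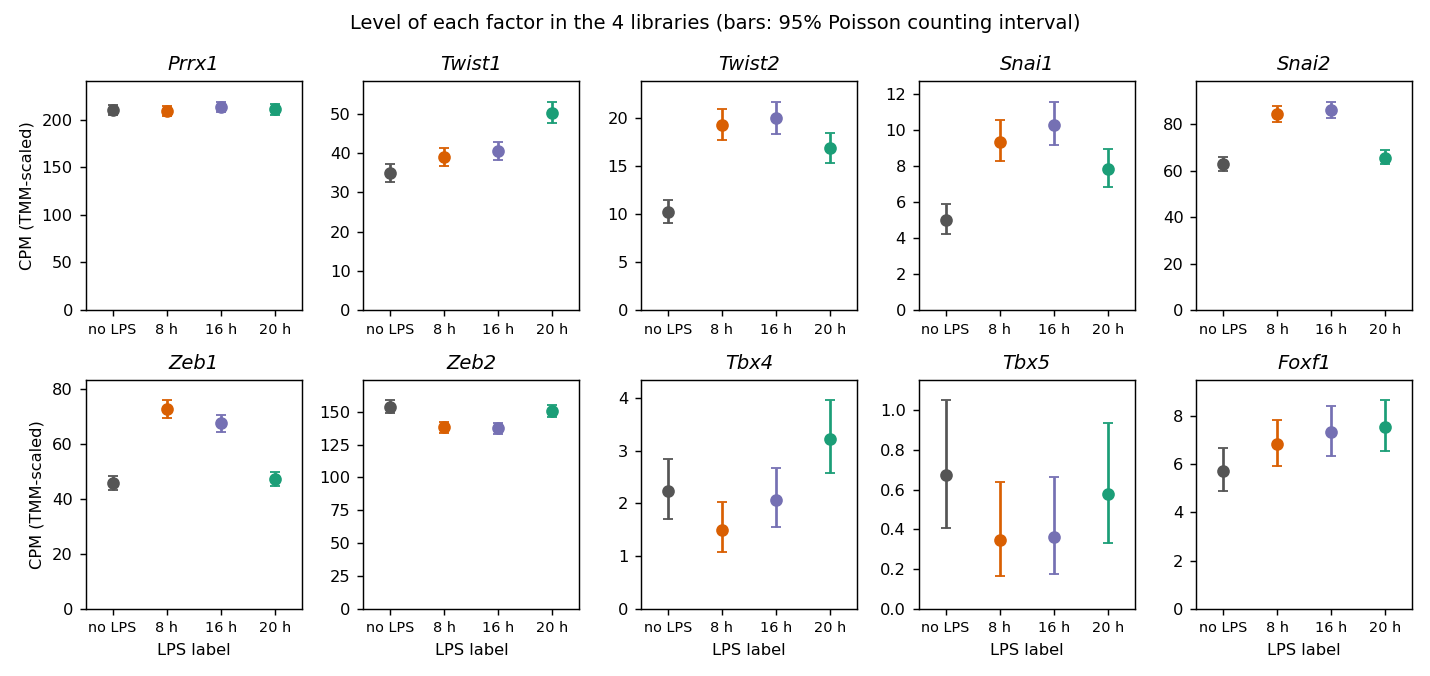
Level of each of the 10 factors in CPM (axes start at 0) by LPS label, 1 point per library, with bars for 95% Poisson counting intervals. Snai2 and Zeb1 are high at 8 and 16 h, Twist1 is highest at 20 h at 50.4 CPM, and Prrx1 stays between 209 and 213 CPM.

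The lung mesoderm factors were low. Foxf1, a forkhead gene downstream of Hedgehog signals in mouse lung mesenchyme (chromosome 8, 121084386 to 121088144), had 162 reads without LPS and 196 (8 h), 203 (16 h) and 209 (20 h) after it. These were 5.73, 6.83, 7.33 and 7.55 CPM. The fold over no LPS was 1.19 (0.962 to 1.48) at 8 h, 1.28 (1.035 to 1.58) at 16 h and 1.32 (1.07 to 1.63) at 20 h. Fendrr, the long noncoding gene that starts close to Foxf1 on the opposite strand, had 60, 49, 59 and 48 reads in the same order.

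Tbx4, a T-box gene of mouse lung and hindlimb mesenchyme, had 63 reads without LPS and 43 (8 h), 57 (16 h) and 89 (20 h) after it. Its level was 2.23, 1.498, 2.06 and 3.21 CPM, highest at 20 h and lowest at 8 h. The fold of 20 h was 1.44 (1.03 to 2.02) over no LPS and 1.56 (1.11 to 2.22) over 16 h, and that of 8 h over no LPS was 0.672 (0.445 to 1.01). Tbx5, its relative of the forelimb, heart and lung bud, had 19 reads without LPS, 10 in the 8 h library, 10 in the 16 h library and 16 in the 20 h library, or 0.348 to 0.672 CPM. At this depth no difference of Tbx5 was detectable, and the interval of its fold at 8 h over no LPS was 0.215 to 1.17.

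**Figure D3:**
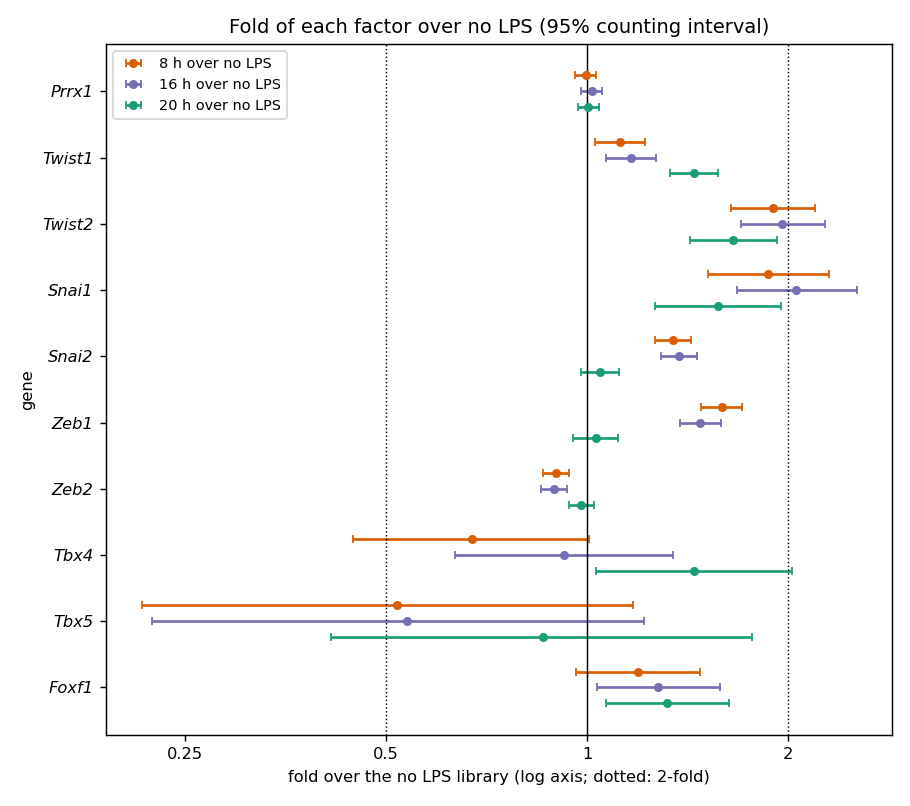
Fold of each factor over the no LPS library (log axis) at 8, 16 and 20 h, points with 95% counting intervals, dotted lines at 2-fold. Snai1 at 16 h, at 2.05, is the 1 point beyond a dotted line with an interval that excludes 1, and the intervals of Tbx5 are the widest.

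Across the 10 factors, 0 were called at 8 h, 1 at 16 h and 0 at 20 h over no LPS, against 8.31%, 8.23% and 0.652% of all measured genes (at 16 h, 4.13% were called higher). None was called between 16 and 8 h or between 20 and 16 h, where 0.237% and 8.47% of measured genes were. The counts of calls are therefore near the background. By the interval alone, 5 of the 9 measured factors were above no LPS and 1 below at 8 h, against 35.4% and 34.8% of measured genes. At 16 h these were 6 above and 1 below, against 35.8% and 35.1%, and at 20 h 5 above and 0 below, against 14.7% and 11.9%. Between 16 and 8 h, 0 were above and 1 below (5.31% and 5.29% of measured genes), and between 20 and 16 h 3 were above and 4 below (36.6% and 34.7%). Whether an interval excludes 1 depends on read number, and the measured genes were not matched to the factors in level. Snai1 and Twist1, both above no LPS at 20 h, lie in the top GC group, whose median log2 ratio there was 0.11. Whether the factors differ from genes of like level and GC was not tested. The median log2 ratio of all 10 over no LPS was 0.21 at 8 h, 0.28 at 16 h and 0.23 at 20 h, and the median of measured genes was within 0.006 of 0. The 8, 16 and 20 h comparisons share the no LPS library, so their values are not independent of one another.

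A linear trend over the label hours was the 1 test run, with 2 residual degrees of freedom. A straight line leaves a profile that is high at 8 and 16 h and back near no LPS at 20 h in its residual. Over no LPS, 981 genes were called at 8 h, 971 at 16 h and 77 at 20 h. Genes with such a profile could hardly pass, so the result below does not show that levels were alike. In edgeR's quasi-likelihood fit 0 of 11803 genes, or 0% of them, passed an adjusted p of 0.05, and 43 (0.364%) had an unadjusted p under 0.05; DESeq2 gave 0 and 25. The 9 measured factors each had an adjusted p of 1 in edgeR. Their slopes lay between -0.0026 log2 units per hour for Zeb2 and 0.0356 for Twist2.

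Ratios within a family do not depend on how libraries are scaled. Zeb1 held 34.5% of the reads of the ZEB pair at 8 h (33.3 to 35.7, exact binomial), 33.0% at 16 h (31.8 to 34.2) and 23.8% at 20 h (22.7 to 24.97), against 22.9% without LPS (21.8 to 24.0). In TPM, Zeb1 stood at 1.02 of Zeb2 at 8 h and at 0.577 of it without LPS, and per longest transcript these ratios were 0.827 and 0.468. Twist1 held 66.9% of the TWIST reads at 8 h (64.6 to 69.2), 67.0% at 16 h (64.7 to 69.2) and 74.9% at 20 h (72.9 to 76.9), against 77.4% without LPS (75.0 to 79.7). Snai1 held 10.0% of the SNAIL reads at 8 h (8.89 to 11.2), 10.7% at 16 h (9.55 to 11.9) and 10.7% at 20 h (9.39 to 12.1), against 7.40% without LPS (6.27 to 8.67). Thus the share of Snai1 at 20 h lay with the treated libraries, while that of Zeb1 at 20 h lay within the interval of no LPS. For Tbx4 in the T-box pair the intervals of all 4 libraries overlapped (66.2% to 92.6%).

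**Figure D4:**
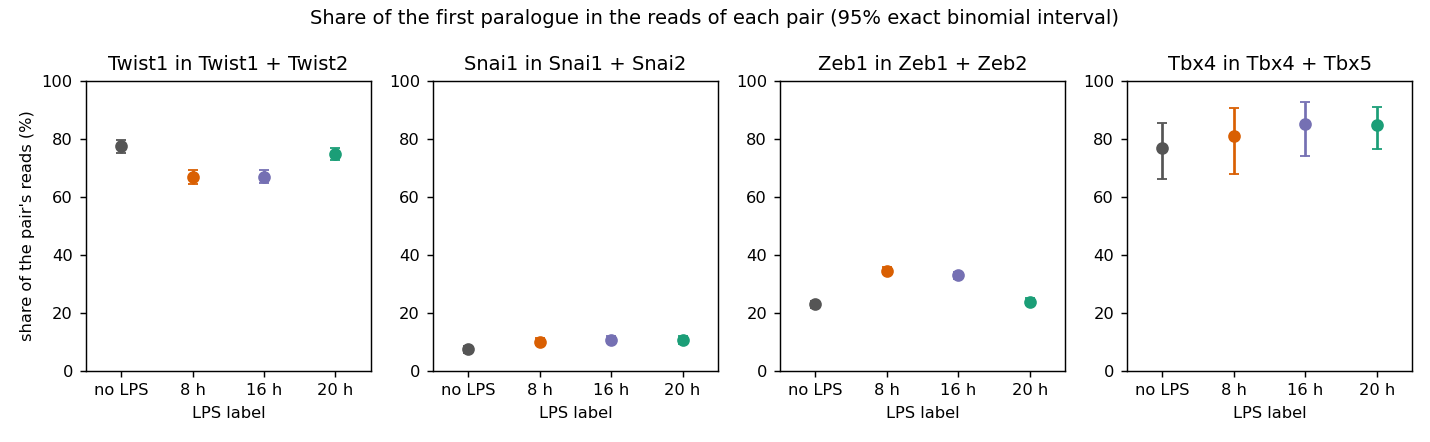
Share of the first gene in the reads of each pair of relatives by LPS label, in percent from 0 to 100, with bars for 95% exact binomial intervals. Zeb1 holds 34.5% at 8 h and 33.0% at 16 h against 22.9% without LPS, and the Tbx4 intervals overlap.

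Genes with the most similar profile were found among 9094 others with at least 10 CPM in at least 1 library, a level that Snai1 reached only at 16 h. The measure was the Euclidean distance of log2 CPM centred on each gene's mean over the 4 libraries. Snai1 was nearest to Twist2, at a distance of 0.105, and then to Sox9 at 0.132 and Zfp36l2 at 0.147. Twist2 was nearest to Zfp36l2 at 0.0761, then to Snai1 and to Ier2 at 0.175. Snai2 was nearest to Ticrr, Meis2 and Ssbp1 (0.0152 to 0.0166), and Zeb1 to Hhip, Iffo2 and Slc8b1 (0.0181 to 0.0330). Zeb2 was nearest to Slc35e1, Eif4g2 and Uggt1 (0.00881 to 0.00975), Prrx1 to Tial1, Tmem208 and Paip2 (0.0105 to 0.0130) and Twist1 to Grasp, Acbd6 and Mcrip2 (0.0293 to 0.0596). With 4 points per gene these distances only describe the libraries.

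The relatives of the factors were mostly low. Of 15 listed, 5 were measured, and Prrx2, the homeobox relative of Prrx1, was called higher at 8 h, at 1.46 CPM against 0.460 CPM without LPS (3.18-fold, 1.68 to 6.46), and at 16 h (2.90-fold, 1.51 to 5.95). Prrx2 was measured only through the 8 and 16 h libraries, and taking in a gene only where it is high favours a difference, though it does not force a call. The same holds for the calls of Grhl2, Elf3, Loxl2, Adgre1 and Csf1r below, which were all under 1 CPM without LPS. Counts of called genes in this and the following lists stand beside 8.31% of all measured genes at 8 h, 8.23% at 16 h and 0.652% at 20 h. Foxf2 stood at 14.7 CPM at 8 h, 16.0 at 16 h and 13.8 at 20 h against 11.8 without LPS, above Foxf1 in read level. Tbx15 stood at 18.2, 18.8 and 14.5 CPM against 15.0, and Tbx3 at 4.32, 4.95 and 6.36 CPM against 5.06, in the same order. Scrt1, Scrt2, Bhlha9 and Ferd3l had 0 reads.

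Among the dimer partners of TWIST proteins, 6 of 7 E protein and Id genes were measured and 1 was called, Id3. This inhibitor of E proteins stood at 20.3 CPM at 8 h, 22.0 at 16 h and 5.78 at 20 h against 4.67 without LPS, or 4.35-fold (3.59 to 5.29), 4.71-fold (3.90 to 5.73) and 1.24-fold (0.976 to 1.57). Id1 instead was highest at 20 h, at 22.7 CPM against 13.2 without LPS (1.72-fold, 1.51 to 1.96). Tcf3, which encodes the E proteins E12 and E47, was not called, at 1.21-fold at 8 h, 1.30-fold at 16 h and 1.21-fold at 20 h. The other E protein genes had more reads and differed in direction, also without a call. Tcf4 stood at 230.9 CPM at 8 h, 224.1 at 16 h and 270.6 at 20 h against 270.1 without LPS. Tcf12 stood at 328.8, 328.5 and 279.1 CPM against 283.3. The list medians were 0.25, 0.37 and 0.20 on the log2 scale at 8, 16 and 20 h.

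Of 30 genes tied to the epithelial state, which SNAIL and ZEB proteins are known to repress in part, 7 were measured. At 8 h 4 were called higher and at 16 h 3, with 0 lower, and 0 were called at 20 h. Of these calls, 2 at 8 h (Grhl2 and Elf3) and 1 at 16 h (Grhl2) were of genes under 1 CPM without LPS, so the counts support nothing about the list. Over the 6 genes with a mean of at least 1 CPM, which leaves out Grhl2 and keeps Elf3, the median log2 ratio was 0.90 at 8 h, 0.71 at 16 h and 0.15 at 20 h. Krt18, a keratin gene, stood at 90.8 CPM at 8 h, 92.8 at 16 h and 37.7 at 20 h against 38.1 without LPS, and Krt8 at 32.6, 32.5 and 14.1 against 13.1. Grhl2, which encodes an epithelial factor that opposes Zeb1, was called on few reads, at 1.22 CPM at 8 h against 0.142 without LPS (8.61-fold, 3.08 to 33.4). Elf3 was called at 8 h, at 2.19 CPM against 0.672 without LPS (3.26-fold, 1.93 to 5.78). Esrp1, Cldn3, Cldn7, Crb3, Marveld3, Ovol1, Ovol2, Ehf and Prss8 had 0 reads in every library, and Epcam had at most 3.

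Of 30 genes tied to the mesenchymal state 19 were measured. The others were under 1 CPM in every library. Among them, Col1a2 and Thy1 had at most 1 read in any library, Postn and Fap at most 2, and Tagln, Lum and Mmp2 at most 4. At 8 h 7 were called higher and 2 lower, at 16 h 6 higher and 2 lower, and at 20 h 0, with medians of 0.45, 0.42 and -0.05. The called share was 47.4% at 8 h and 42.1% at 16 h, against 8.31% and 8.23% of all measured genes, and the list was chosen with earlier results known. S100a4 stood at 15.2 CPM at 8 h, 14.8 at 16 h and 2.46 at 20 h against 3.29 without LPS (4.61-fold at 8 h, 3.67 to 5.83), and the secreted glycoprotein gene Fstl1 at 64.5, 64.8 and 17.3 against 16.8. The matrix genes Fbln2 (2.71-fold at 8 h, 1.79 to 4.195) and Dcn (0.312-fold, 0.242 to 0.400) were called in opposite directions. Col3a1 stood at 81.8 CPM at 8 h, 83.2 at 16 h and 163 at 20 h against 168 without LPS, and Vim at 2760, 2871 and 2543 CPM against 2358.

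Of 34 genes for signals of the lung mesoderm 12 were measured. At 8 h 1 was called higher and 1 lower (16.7% of the 12, against 8.31% of all measured genes), at 16 h 1 higher (8.33%, against 8.23%) and at 20 h 0, with medians of -0.03, 0.04 and 0.03. Npnt, a matrix ligand of integrin alpha 8, was called higher at 8 h (2.67-fold, 1.995 to 3.60) and at 16 h (2.98-fold, 2.24 to 4.01). Gli2, a Hedgehog effector, was called lower at 8 h, at 3.13 CPM against 6.30 without LPS (0.498-fold, 0.382 to 0.645). Fgf10, the mesenchymal ligand that drives budding of the mouse lung, was not called, at 12.5 CPM at 8 h, 13.4 at 16 h and 21.2 at 20 h against 19.9 without LPS. Hhip, a Hedgehog inhibitor, was not called either (1.60-fold at 8 h, 1.38 to 1.85), and Shh had 0 reads.

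**Figure D5:**
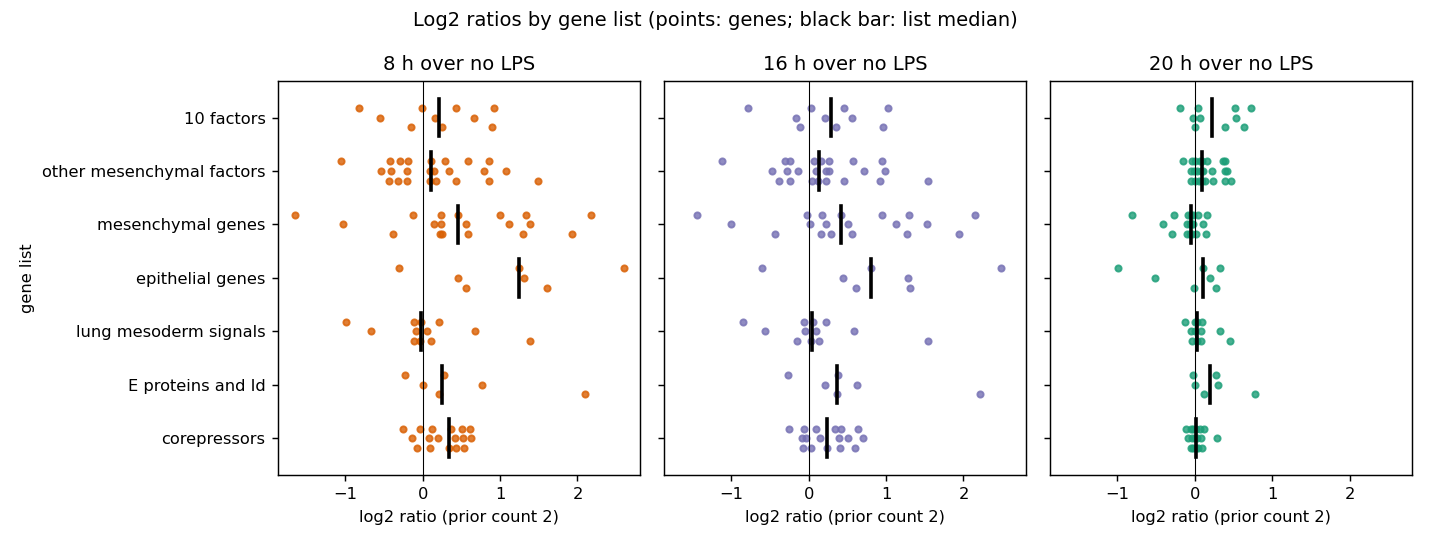
Log2 ratios over no LPS (prior count 2) of the 10 factors and of the measured genes of 6 lists, 1 panel per label, points for genes and black bars for list medians. The median of the 10 factors is 0.21 at 8 h, 0.28 at 16 h and 0.23 at 20 h, and list points include genes measured only through libraries where they are high, such as Grhl2 and Elf3.

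Other mesenchymal factors, 24 of 42 measured, had 2 higher and 1 lower at 8 h, 1 higher and 1 lower at 16 h and 0 called at 20 h (medians 0.10, 0.13 and 0.09). Foxs1 was called higher at 8 h (2.87-fold, 2.10 to 3.96) and Mkx too (2.14-fold, 1.62 to 2.84), and Foxl1 was called lower (0.475-fold, 0.359 to 0.623). Sox9 stood at 27.4 CPM at 8 h, 30.1 at 16 h and 21.0 at 20 h against 15.2 without LPS, with no call. Tcf21, a lung fibroblast factor in the mouse, had 0 reads.

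None of the 17 measured corepressor and chromatin genes of 18 was called at any label over no LPS. Their medians were 0.34 at 8 h, 0.24 at 16 h and 0.02 at 20 h. Ezh2, the Polycomb methyltransferase, stood at 149 CPM at 8 h, 149 at 16 h and 104 at 20 h against 98.1 without LPS. Ajuba, which encodes a LIM protein that binds SNAIL, stood at 32.0, 34.0 and 25.4 CPM against 20.8. Hdac1 (1.44-fold) and Chd4 (1.43-fold) were also above no LPS at 8 h without a call. Not all went this way. By the interval alone, 12 of the 17 were above no LPS and 3 below at 8 h (35.4% and 34.8% of measured genes). At 16 h 10 were above and 2 below (35.8% and 35.1%), and at 20 h 5 above and 2 below (14.7% and 11.9%). Limd1 stood at 68.03 CPM at 8 h against 80.95 without LPS, and Ctbp1 at 139.5 against 146.4.

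Of the genes that act on SNAIL and TWIST protein turnover or modification, 13 of 15 were measured. Pak1, a kinase that acts on SNAIL, was called higher at 8 h, at 22.1 CPM against 7.15 without LPS (3.09-fold, 2.63 to 3.63), and at 16 h (3.07-fold). Loxl2 was called at 16 h at 1.16 CPM (3.63-fold, 1.69 to 8.64), and the ligase gene Fbxl14 was not called, at 1.29-fold at 20 h (1.18 to 1.41). The list medians were at most 0.05. Dub3 was not matched to a row.

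Factors of other lineages were measured in part. Of 23 endothelial factors 9 were measured and 1 was called, Klf2, at 13.4 CPM at 8 h and 12.9 at 16 h against 4.39 without LPS, while Erg, Sox17 and Bcl6b had 0 reads (medians 0.32, 0.29 and 0.07). Of 13 lung epithelial factors 5 were measured and 1 was called, Foxa2, at 4.70 CPM at 8 h and 4.37 at 16 h against 1.84, while Nkx2-1 had 0 reads (medians 0.47, 0.51 and 0.16). Of 15 leukocyte factors 5 were measured and 2 were called higher at 8 and 16 h, Tcf7 (3.49-fold at 8 h, 2.73 to 4.50) and Irf8 (2.53-fold, 1.76 to 3.71), with medians of 0.31, 0.59 and 0.11. The leukocyte markers summed to 2.89 CPM at 8 h, 5.13 at 16 h and 3.21 at 20 h against 2.26 without LPS; at 16 h the macrophage genes Adgre1 (2.78 CPM against 0.425) and Csf1r (1.08 CPM against 0.318) were called higher, both measured only through libraries where they were high. The mesothelial markers summed to 4.11, 3.36 and 2.64 against 2.69. Their part in the values of the factors was not tested.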

How the data were processed

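The authors deposited unnormalized whole-number counts for each gene and library, made with STAR and featureCounts on mm10, per the submitters' processing notes. The sources used here do not give versions, annotation, strand handling or multi-mapping, so overlapping and antisense genes are uncertain. Symbols and coordinates came from GENCODE M21 by stable identifier (38872 matched, 99.5%).

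Columns were matched to samples by title, and groups follow the treatment label. CPM used TMM-scaled totals (edgeR 4.0.16, R 4.3.3), TPM the union of annotated exons, and log2 ratios a prior count of 2. Fold intervals are exact conditional binomial 95% intervals and cover counting error only, and a level of 3 reads was 0.104 to 0.108 CPM. The trend over hours used glmQLFit and glmQLFTest with Benjamini-Hochberg adjustment over all genes of at least 1 CPM, and DESeq2 1.42.0 as an alternative. The rule of size and the edgeR trend were run on simulated counts. Those for the rule varied by counting error only, and those for the trend held straight slopes only. The runs therefore do not show how either behaves with the variation between libraries or the profiles of these data.

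The 10 factors and the lists were chosen with earlier results of these data known. Context genes named are up to 4 measured members per list with the largest absolute log2 ratio over no LPS. Always named were S1pr1, Pecam1, Cdh5, Ptprc, Epcam, Vim, Col1a1 and Col3a1; Cdh5 had 5 reads without LPS, 6 in the 8 h library, 6 in the 16 h library and 9 in the 20 h library. Genes named beyond this were picked after their values were seen. A GC correction, longest-transcript TPM and a minimum on the mean CPM of list genes were added after seeing the data.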

Additional observations from a re-analysis of the deposited data

How the results depend on the processing

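No paired analysis was possible because each label has 1 library. Under scaling by library size, DESeq2 size factors or upper quartiles, the counts of called genes stayed within 1.5 times of the main ones. With a fold of at least 1.5, calls among the 10 factors numbered 3 at 8 h (Twist2, Snai1 and Zeb1), 2 at 16 h, 2 at 20 h over no LPS and 1 at 20 h over 16 h. In the same comparisons this threshold called 2343, 2356, 236 and 2449 of the 11803 measured genes. With a fold of at least 4 there was 0 at 16 h, where Snai1 had been called. Among all genes, a fold of at least 1.5 gave 2343, 2356 and 236 calls at 8, 16 and 20 h over no LPS, 92 at 16 h over 8 h and 2449 at 20 h over 16 h, against 981, 971, 77, 28 and 1000. A fold of at least 4 gave 187, 178, 9, 2 and 184 in that order, and a minimum of 10 CPM gave 332, 332, 22, 0 and 357. No minimum gave 1484 at 16 h and 216 at 20 h over no LPS and 172 at 16 h over 8 h, where a 99% interval gave 18. Subtracting the median of the GC group, chosen after seeing the data, put Snai1 at 16 h at a log2 ratio of 0.95, under 2-fold; the cause was not tested. The trend had 0 calls under every alternative run, each library left out included (range 0 to 0), with the same limit of a straight line. Tbx4 and Tbx5 are limited by depth, at 10 to 89 reads.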
